A study of Mus musculus with 8 samples.

Results

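The Iroquois homeobox genes Irx1 to Irx6 were examined in the forming heart region of mouse embryos that lack Isl1. All 6 genes were found by symbol among the 20701 gene symbols of the expression table, and for each the transcript entry with the highest summed read count was used. RNA had been sequenced from the pharyngeal mesoderm and hearts of single C57BL/6 embryos at E8.75 (6 somites), 4 of genotype Isl1-/- and 4 wild-type, so each library was 1 embryo. Isl1 encodes a LIM-homeodomain factor of second heart field progenitors, and the 2 genotypes were set side by side to find genes that need it. The labels give no further detail of the Isl1 allele. One entry in the labels differed, since Isl1-/- embryo 2 was listed as total RNA and the other 7 embryos as polyA RNA.

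Iroquois proteins are transcription factors of the TALE homeodomain class. In mammals their genes sit in 2 clusters of 3, and neighbouring genes of a cluster are known to share long-range enhancers. In the heart, Irx4 is known for its ventricle-restricted expression, Irx3 for its role in the ventricular conduction system and Irx5 for shaping the ventricular repolarization gradient. Outside the heart Irx1, Irx2, Irx3 and Irx5 are known from the neural tube, surface ectoderm and foregut derivatives, and the dissected pieces could hold all of these tissues.

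Irx1, Irx2 and Irx4 lay on chromosome 13 within 1311 kb (72095680 to 73407068, mm9), and Irx3, Irx5 and Irx6 on chromosome 8 within 882.4 kb (94322428 to 95204855, mm9). In the first cluster Irx1 (72095680 to 72101171, minus strand) was 665.1 kb from Irx2 (72766245 to 72771644, plus strand), which was 626.3 kb from Irx4 (73397945 to 73407068, plus strand). In the second, Irx3 (94322428 to 94325553, minus strand) was 556.1 kb from Irx5 (94881695 to 94885351, plus strand), which was 312.8 kb from Irx6 (95198188 to 95204855, plus strand). The annotated lincRNA D230002A01Rik lies antisense to Irx3 and covers 124 of its 2345 exonic bases. Because reads of both strands were counted together, that stretch could not be assigned to either gene.

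Irx4 and Irx2 belong to the same cluster and gave different results below, so the 250 bases before the start of each are shown. Both are from RefSeq on GRCm38.p6 and read 5′ to 3′ on the plus strand, as chr13:73260247-73260496 for Irx4 and chr13:72628570-72628819 for Irx2. Capitals mark the letters TTAATG, one spelling of the short sequence that LIM-homeodomain proteins are known to bind.
Irx4: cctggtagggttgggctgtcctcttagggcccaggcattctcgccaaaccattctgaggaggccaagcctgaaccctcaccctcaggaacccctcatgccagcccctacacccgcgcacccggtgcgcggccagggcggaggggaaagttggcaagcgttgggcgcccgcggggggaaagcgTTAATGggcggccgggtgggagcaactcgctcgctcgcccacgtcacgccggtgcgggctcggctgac
Irx2: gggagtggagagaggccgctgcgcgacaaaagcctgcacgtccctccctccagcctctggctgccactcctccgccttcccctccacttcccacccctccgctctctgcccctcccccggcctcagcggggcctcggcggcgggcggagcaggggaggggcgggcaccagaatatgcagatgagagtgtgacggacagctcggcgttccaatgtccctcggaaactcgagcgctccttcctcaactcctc
Both windows were rich in G and C, at 68.8% and 68.4% against a median of 52.4% over 32851 promoter windows, and held 22 and 19 CG dinucleotides against a median of 6. TTAATG, searched on both strands, occurred once before Irx4 (first base 68 bases before the start) and not before Irx2 or Irx3, and 7.91% of all windows held it. This form was searched only after the sequence had been read. The other motifs searched on both strands had no match before Irx2, Irx3 or Irx4. They were the NK2 factor letters TNAAGTG, held by 10.1% of all windows, and the GATA factor letters AGATAA, held by 9.99%. The LIM-homeodomain spelling CTAATG was held by 6.36% of windows. The Iroquois letters ACANNTGT were held by 6.31%. Such matches describe letters and not binding.

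Levels of the 6 genes were first compared within the wild-type embryos, on a scale corrected for transcript length and library depth (RPKM, reads for each kilobase and each 1000000 reads counted). Irx3 was the most abundant, at 14.8 ± 3.36 RPKM (SD, n = 4). Irx2 followed at 9.23 ± 1.10 RPKM, Irx1 at 8.56 ± 1.96 RPKM and Irx5 at 6.44 ± 1.76 RPKM. Irx4 stood at 2.78 ± 0.288 RPKM and Irx6 at 0.0337 ± 0.0150 RPKM. Irx3 lay above Irx2 with no overlap of their ranges, while the ranges of Irx2 and Irx1 overlapped and so did those of Irx1 and Irx5. Irx5 lay above Irx4 in 4 of 4 wild-type embryos, by 1.74 to 3.53 times. The order was the same in the Isl1-/- embryos, where Irx3 reached 19.3 ± 3.31 RPKM and Irx4 was at 1.91 ± 0.260 RPKM. There, the ranges of Irx1 and Irx5 no longer overlapped (Irx1 was 1.35 to 1.52 times Irx5 in each embryo).

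Isl1, the targeted gene, was checked before the genotypes were compared. Scaled to 1000000 reads (CPM), the wild-type embryos 1 to 4 had 9.72, 9.76, 26.9 and 23.3 CPM of Isl1, and the Isl1-/- embryos 1 to 4 had 2.32, 2.16, 1.78 and 2.40 CPM. Every Isl1-/- library lay below every wild-type library. Library totals, over the 1 transcript entry used for each symbol, ran from 23480470 to 26153039 reads in the wild-type and from 18916452 to 25047013 in the Isl1-/- group. Of 14075 genes fitted, 137 passed an edgeR false discovery rate (FDR) of 0.05, 122 lower and 15 higher in the Isl1-/- embryos. Wild-type embryo 3 stood apart from the other wild-type embryos in several of the values that follow, and without it 490 genes passed.

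None of the 5 Irx genes that could be fitted passed the FDR of 0.05 in edgeR, against 0.973% of all genes (0.867% lower and 0.107% higher in the Isl1-/- embryos). Irx4 came closest, at 66.1% of its wild-type mean and an FDR of 0.0621, and it was the only member with an unadjusted edgeR p under 0.05, which 17.4% of all genes had (10.1% lower, 7.37% higher). The Wald test of DESeq2, run on the same counts, called 1 Irx gene, again Irx4 (adjusted p 0.00190), where 728 of 13810 genes with an adjusted p passed (5.27%). Irx1, Irx2, Irx3 and Irx5 had higher mean levels in the Isl1-/- embryos and FDRs from 0.324 to 0.850. Irx6 was too weakly expressed for the fit.

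Irx4, the ventricular member, reached 12.6, 11.8, 11.4 and 13.8 CPM in the wild-type group, in the order of embryos 1 to 4. In the Isl1-/- group it stood at 7.96, 7.09, 9.73 and 8.03 CPM. The groups did not overlap, which held for 6.33% of all genes fitted with the Isl1-/- embryos lower and for 3.96% with them higher (10.3% in all). The mean went from 12.4 ± 1.10 to 8.20 ± 1.10 CPM (SD, n = 4; exact two-sided permutation p = 0.0286, the smallest that 4 against 4 allows). The fitted log2 fold change was -0.60 (SE 0.13, 95% interval -0.88 to -0.32). In 15 alternative fits it ran from -0.72 to -0.38. The value of -0.38 was from limma on log2(RPKM + 1), which is not the scale of the count fits. FDRs of the 15 fits ran from 0.00190 to 0.188, and in 3 of these fits the FDR was under 0.05. Without wild-type embryo 3 the FDR was 0.0399, in a fit where 490 genes passed.

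**Figure D1:**
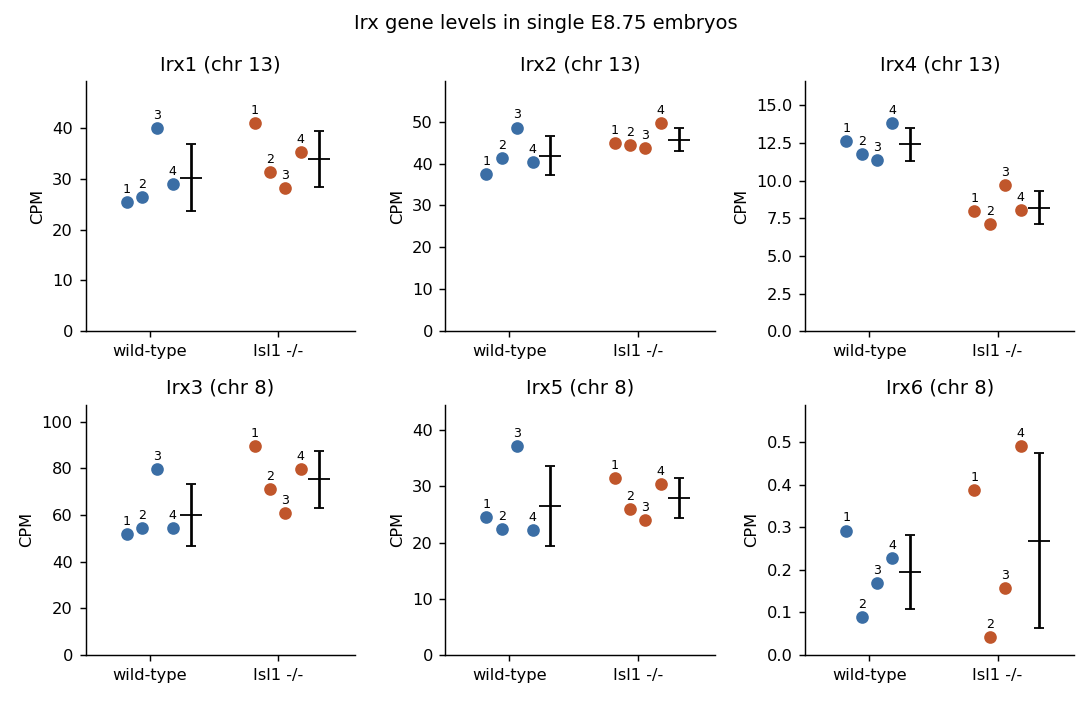
Expression of the 6 Irx genes in CPM (y axis, starting at 0) in 4 wild-type (blue) and 4 Isl1-/- (orange) embryos; each numbered point is 1 embryo and the black bars are the mean and SD. Irx4 is the only gene whose groups do not overlap (wild-type 11.4 to 13.8, Isl1-/- 7.09 to 9.73 CPM), and wild-type embryo 3 is the highest wild-type value for Irx1, Irx2, Irx3 and Irx5.

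Irx1, which is known from the branching lung and the nephron, had wild-type levels of 25.5, 26.5, 40.0 and 29.0 CPM and Isl1-/- levels of 41.0, 31.3, 28.2 and 35.2 CPM, in the same order of embryos. Wild-type embryos 3 and 4 both lay among the Isl1-/- values, and the groups overlapped. The log2 fold change was 0.17 (95% interval -0.19 to 0.53, FDR 0.635).

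Irx2, the middle gene of the cluster, was at 37.4, 41.3, 48.6 and 40.3 CPM in the wild-type and at 44.9, 44.4, 43.8 and 49.7 CPM in the Isl1-/- embryos. Only wild-type embryo 3 reached the Isl1-/- range. The log2 fold change was 0.12 (95% interval -0.08 to 0.33, FDR 0.517), the narrowest interval of the family.

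Irx3, a regulator of the His-Purkinje system in later hearts and a patterning gene of the ventral neural tube, was at 51.7, 54.2, 79.9 and 54.4 CPM in the wild-type embryos. In the Isl1-/- embryos it was at 89.4, 71.2, 60.8 and 79.6 CPM. Only wild-type embryo 3 reached the Isl1-/- range, and the other 3 wild-type values lay below all 4 Isl1-/- values. Leaving that embryo out removes the only value that overlapped, so a separation without it is no independent result. The log2 fold change was 0.33 (95% interval -0.03 to 0.68, FDR 0.324), and 0.49 without wild-type embryo 3 (FDR 0.0559). In the fit without that embryo 490 genes passed, against 137 in the reported fit. A second Irx3 entry in the table had 4 to 11 fewer reads per library than the one used.

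Irx5 was at 24.6, 22.3, 37.1 and 22.2 CPM in the wild-type and at 31.5, 25.9, 24.1 and 30.4 CPM in the Isl1-/- embryos. The highest of the 8 values was that of wild-type embryo 3, and the groups overlapped. The log2 fold change was 0.08 (95% interval -0.31 to 0.46, FDR 0.850), the smallest in size of the family, and 0.28 without wild-type embryo 3 (FDR 0.167).

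For Irx6 only 19 reads were counted over the wild-type group (7, 2, 4 and 6) and 24 over the Isl1-/- group (10, 1, 3 and 10). The counts of both groups overlapped, and a difference was not detectable at this depth. When the filter on low counts was left off, its log2 fold change was 0.46 (SE 0.65, edgeR FDR 0.777).

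**Figure D2:**
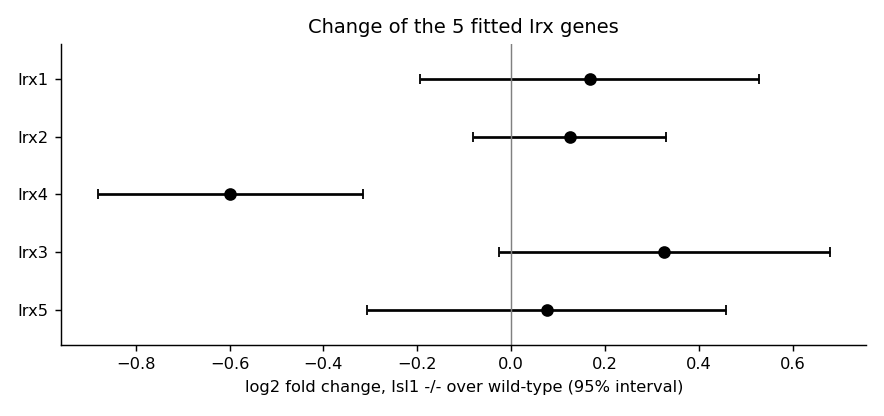
Log2 fold change (x axis, Isl1-/- over wild-type) of the 5 Irx genes that passed the expression filter; points are edgeR estimates and bars 95% intervals. The interval of Irx4 (-0.88 to -0.32) lies below 0, and the intervals of the other 4 genes include 0.

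The 2 clusters were then compared as wholes. Summed over Irx1, Irx2 and Irx4, the chromosome 13 cluster was at 84.6 ± 10.7 CPM in the wild-type and 87.8 ± 6.53 CPM in the Isl1-/- group (SD, n = 4), a ratio of 1.04. Summed over Irx3, Irx5 and Irx6, the chromosome 8 cluster was at 86.8 ± 20.2 and 103.5 ± 15.8 CPM, a ratio of 1.19. Both sums overlapped between the groups. Per length, the chromosome 8 cluster was 0.933 to 1.17 times the chromosome 13 cluster in wild-type embryos and 1.05 to 1.28 times in Isl1-/- embryos, so that the balance of the clusters overlapped as well. Sums and balances are given without a test.

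The share of Irx4 within the chromosome 13 cluster was read next. Irx4 made up 15.5%, 13.7%, 10.4% and 15.4% of the summed RPKM of that cluster in the wild-type group, embryos 1 to 4. It made up 7.67%, 7.87%, 11.0% and 7.92% in Isl1-/- embryos 1 to 4. Wild-type embryo 3 and Isl1-/- embryo 3 crossed, so these shares overlapped. The ratio of Irx4 to Irx2 in the same embryo, both per length, ran from 0.238 to 0.349 among wild-type and from 0.163 to 0.226 among Isl1-/- embryos, without overlap, which 6.54% of all genes showed in the same direction against Irx2.

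Within an embryo, 3 ratios were formed between Irx3 and another Irx gene. The ratio of Irx1 to Irx3, genes of different clusters, was 0.564, 0.560, 0.574 and 0.612 in wild-type embryos and 0.526, 0.503, 0.532 and 0.507 in Isl1-/- embryos, both per length. The ratio of Irx5 to Irx3, genes of the same cluster, was 0.468, 0.405, 0.457 and 0.401 in wild-type and 0.346, 0.358, 0.390 and 0.376 in Isl1-/- embryos. In both ratios every Isl1-/- embryo lay below every wild-type embryo, wild-type embryo 3 included. The ratio of Irx3 to Irx2 overlapped between the groups, with 1.47 to 1.84 among wild-type and 1.55 to 2.23 among Isl1-/- embryos. Over all genes fitted, 5.27% had ratios to Irx3 that separated the groups in this direction. These ratios were chosen after the levels were seen and carry no test.

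Irx1, Irx2, Irx3 and Irx5 deviated together from embryo to embryo. After the mean of each genotype was subtracted, the 6 pairs among them correlated over the 8 libraries with Pearson r from 0.763 (Irx1 and Irx2) to 0.983 (Irx1 and Irx3). The closest pair thus joined genes of different chromosomes, and Irx3 with its own neighbour Irx5 reached 0.937. Irx4 went the other way, with r from -0.557 to -0.395 against the other 4. Without wild-type embryo 3 the 6 pairs ranged from 0.28 to 0.959 and the Irx4 pairs from -0.467 to -0.185. These values describe 8 libraries that each share depth and tissue makeup across all genes.

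**Figure D3:**
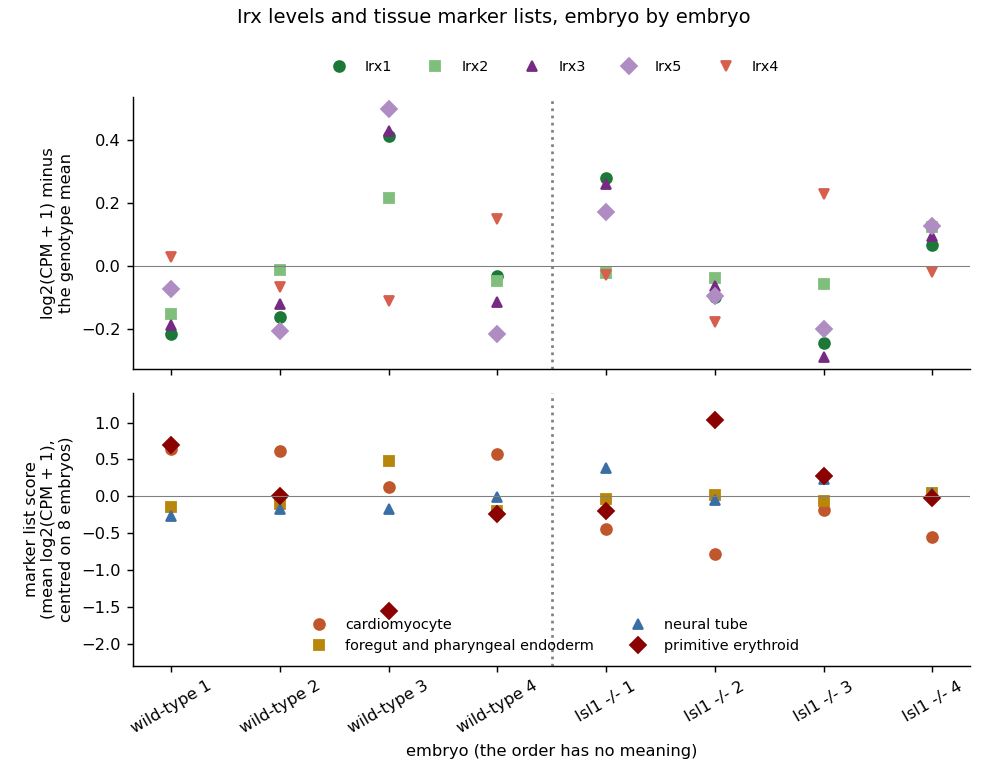
Upper panel: log2(CPM + 1) of 5 Irx genes minus the mean of the genotype, for each of the 8 embryos. Lower panel: scores of 4 marker lists in the same embryos (mean log2(CPM + 1) of the list, centred on the 8 embryos). Irx1, Irx2, Irx3 and Irx5 are at their highest in wild-type embryo 3, where the endoderm score is 0.48 and the erythroid score -1.55.

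Marker lists showed what tissue lay beside these values. All 12 heart muscle genes of a marker list were detected, so the dissected pieces held heart as labelled, and neural tube, endoderm, ectoderm and blood markers were present as well. Of the 12 heart muscle genes, 11 passed the FDR with lower levels in the Isl1-/- embryos, as did 0.867% of all genes. The median log2 fold change of the 12 was -0.98 against 0.01 over all genes. Their summed level was 3334 to 4934 CPM in the wild-type and 1782 to 2697 CPM in the Isl1-/- embryos. The 11 were the myosin genes Myh6 (-1.09), Myh7 (-1.18), Myl4 (-0.78) and Myl7 (-0.79), the actin gene Actc1 (-0.91), the troponin genes Tnnt2 (-0.90), Tnni1 (-0.65) and Tnnc1 (-1.003), and Actn2 (-1.07), Mybpc3 (-1.01) and Ryr2 (-0.96), with log2 fold changes in parentheses. Ttn had -1.38 and an FDR of 0.0549. Of these estimates, those of Myl4, Myl7 and Tnni1 lay within the 95% interval of Irx4 (-0.88 to -0.32), and all the others lay below it. This leaves out their own errors, such as an SE of 0.13 for Tnnt2 and 0.18 for Actc1. A smaller fall of Irx4 therefore cannot be read from it. In bulk tissue, fewer heart muscle cells and less RNA per cell cannot be told apart. Of 10 neural tube genes 0 passed the edgeR FDR and 1 had an unadjusted p under 0.05, with 9 above 0 and a median of 0.30, and their summed level was 288.2 to 329.8 CPM in the wild-type and 294.9 to 399.2 CPM in the Isl1-/- group. Of 9 foregut and pharyngeal endoderm genes 0 passed and 1 had such a p, with a median of 0.01 and summed levels of 220.7 to 309.5 and 218.1 to 304.1 CPM. Of 10 endothelial, 7 neural crest, 8 surface ectoderm, 6 fitted somite and 7 erythroid genes 0 passed the edgeR FDR, 2 endothelial genes had an unadjusted p under 0.05, and the medians were -0.20, 0.09, 0.19, 0.00 and 0.48. Wild-type embryo 3 had the highest endoderm score (0.48, the others -0.20 to 0.04) and the lowest erythroid score (-1.55, the others -0.24 to 1.04) of the 8 embryos. Its heart muscle score was 0.13, while those of wild-type embryos 1, 2 and 4 were 0.57 to 0.64, with 79130 heart muscle reads against 109323 to 119288. Over the 8 libraries, deviations of Irx1, Irx2, Irx3 and Irx5 correlated with those of the endoderm score at r from 0.737 to 0.881. With the somite score r ran from 0.484 to 0.792, with neural crest from 0.41 to 0.5 and with neural tube from -0.0469 to 0.326. It ran from -0.119 to 0.325 with the endothelial score and from -0.271 to 0.0909 with surface ectoderm. Against the erythroid score r ran from -0.852 to -0.772, and against the heart muscle score from -0.702 to -0.635. Irx4 had r of 0.802 with the heart muscle score, -0.639 with neural crest, -0.503 with endoderm, 0.512 with neural tube and 0.0589 with erythroid. Its r was -0.468 with surface ectoderm, -0.316 with endothelial and -0.299 with somite scores. All these correlations with scores include wild-type embryo 3, and they were not computed without it. The part of tissue makeup in the Irx values was not tested.

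Irx4 was next set against heart muscle reads of the same embryo. Per 1000 reads of the 12 heart muscle genes there were 2.56, 2.42, 3.41 and 3.05 Irx4 reads in the wild-type group and 3.39, 3.98, 3.61 and 3.89 in the Isl1-/- group, each in the order of embryos 1 to 4. Wild-type embryo 3 reached just above the lowest Isl1-/- value. The means were 2.86 ± 0.455 (wild-type) and 3.71 ± 0.270 (Isl1-/-), a ratio of 1.30 (SD, n = 4; exact two-sided permutation p = 0.0571). Of the 4 wild-type values, 3 lay below the lowest Isl1-/- value of 3.39, so the groups overlapped. The heart muscle reads were themselves lower in the Isl1-/- embryos, so a gene that fell less, or not at all, rises in this ratio. The share of all genes that rose against heart muscle reads was not computed. Without wild-type embryo 3 the exact permutation p was 0.0286, the smallest that 3 against 4 allows. Leaving that embryo out removes the only wild-type value that overlapped, so this p was fixed in advance and is no independent result.

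Cardiac regulators known to act upstream of or together with Irx factors were read from a list of 9. All 9 had log2 fold changes below 0 (48.8% of all genes fitted did), with a median of -0.73 against 0.01 over all genes. Of the 9, 5 passed the FDR with lower levels, as did 0.867% of all genes. Nkx2-5, a homeobox factor known to be needed for Irx4 expression, had means of 25.4 ± 2.98 and 9.58 ± 1.35 CPM in the wild-type and Isl1-/- groups, and its log2 fold change was -1.40 (FDR 0.00186). Smyd1, a muscle-restricted methyltransferase (-1.13, FDR 0.00174), Tbx5 (-1.17, FDR 0.00304), Tbx20 (-1.13, FDR 0.00186) and Mef2c (-0.73, FDR 0.00985) passed too. Gata4 (-0.63, FDR 0.0532), Hand2 (-0.39, FDR 0.187) and Hey2, a ventricular repressor of atrial genes (-0.23, FDR 0.456), did not pass. Neither did Hand1, whose value was near 0 (-0.01, SE 0.40, FDR 0.989). The fall of the heart muscle list (median -0.98) lay beside the values of these regulators, and its part in them was not tested.

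Genes known to respond to Irx factors in the heart were read from a list of 7, of which 6 were fitted. All 6 had log2 fold changes below 0, as did 48.8% of all genes, with a median of -0.74. Of the 6, 0 passed the edgeR FDR and 5 had an unadjusted p under 0.05, which 10.1% of all genes had with the Isl1-/- embryos lower. The heart muscle list moved with them (median -0.98), and its part in these values was not tested. Myl2, the ventricular myosin light chain, was at 80.9 ± 29.3 and 44.0 ± 6.54 CPM (log2 fold change -0.88, FDR 0.146). Gja5, the connexin that Irx3 is known to activate, was at 5.91 ± 0.985 and 3.92 ± 0.692 CPM (-0.59, FDR 0.143), and Gja1, the connexin that Irx3 is known to repress, at 469.5 ± 30.3 and 415.4 ± 18.4 CPM (-0.18, FDR 0.208). Kcnd2, the potassium channel gene repressed by Irx5, was near 0 in both groups (0.0628 and 0.0606 CPM on average). Of 9 ventricular genes (median -1.08), 3 passed the FDR with lower levels (0.867% of all genes did): Myh7 (-1.18, FDR 0.00453), Smpx (-1.22, FDR 0.0113) and Myl3 (-1.09, FDR 0.0160). Of 7 fitted atrial and inflow genes (median -0.38) 4 had log2 fold changes below 0 and 3 above 0. Of the 7, 2 passed with lower levels, Myl7 (-0.79, FDR 0.00811) and Tbx5. The lists shared genes and are not separate results. Myh7 and Myl7 were also on the heart muscle list, and Tbx5 was among the regulators. Myl2, Nppa and Bmp10 of the response list were also on the ventricular list, as were Hey2 and Hand1 of the regulators. Tbx18 was on both the atrial and inflow list and the somite list.

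The genes around both clusters were read for comparison. Of the 12 protein-coding genes nearest to the ends of the clusters, 9 were found in the table by symbol, 8 were fitted and 0 passed the edgeR FDR (lowest 0.0944). Ndufs6 and Mrpl36, mitochondrial genes 50.2 and 61.4 kb beyond Irx4, had log2 fold changes of -0.12 (FDR 0.649) and -0.19 (FDR 0.338), and Lpcat1 of 0.10 (FDR 0.583). Adamts16, 1115 kb beyond Irx1, had the largest value, 1.29 (SE 0.33, FDR 0.0944) at 0.562 CPM in the wild-type and 1.38 CPM in the Isl1-/- group, and was the only one of the 8 with an unadjusted edgeR p under 0.05. Beside the Irx3 end, Fto (0.06, FDR 0.643), Rpgrip1l (0.02, FDR 0.942) and Aktip (0.03, FDR 0.859) had values near 0, as did Mmp2 beyond Irx6 (-0.0015, FDR 0.993).

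**Figure D4:**
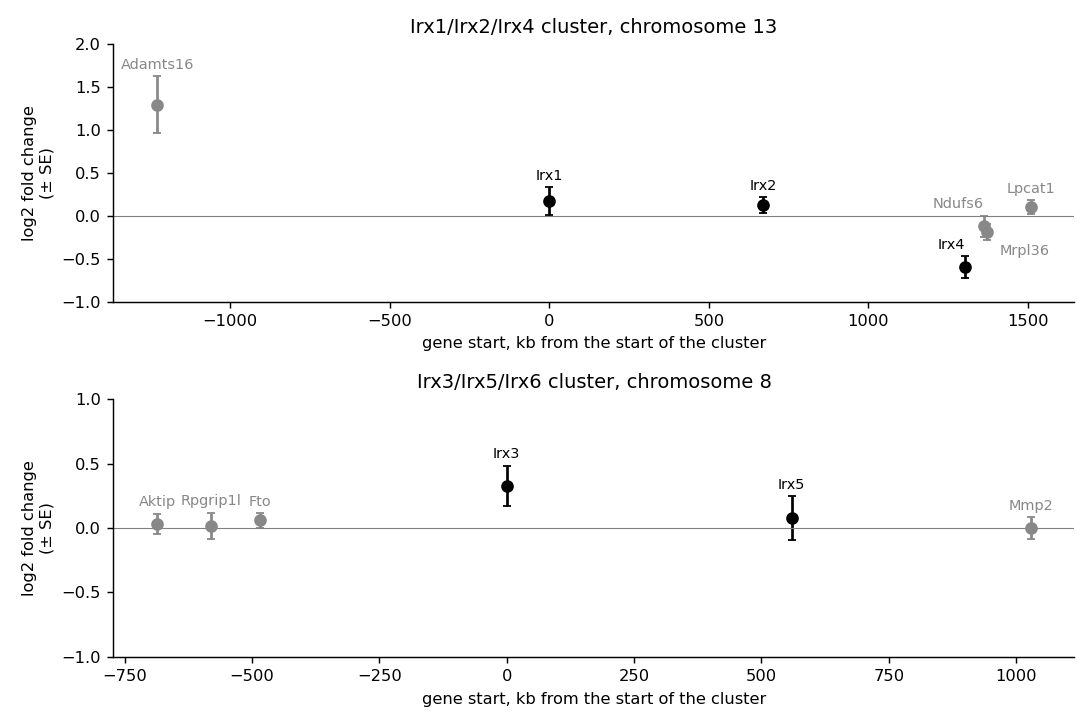
Log2 fold change (y axis, Isl1-/- over wild-type, bars ± SE) against the start of each gene in kb from the start of its cluster (x axis), for fitted Irx genes (black) and the fitted neighbours (grey). Irx4 at -0.60 lies below both its cluster partners and the genes next to it, and on chromosome 8 every point lies between -0.0015 and 0.33.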

How the data were processed

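The authors aligned reads to mm9 with STAR and counted them over RefSeq exons with HOMER, both strands together, and deposited these raw counts unnormalized (versions are not given in the sources used here). From the counts they derived the deposited RPKM with edgeR, dividing by transcript length and library total. That total ran over all 31507 entries (31784322 to 44114268 reads), where entries of a symbol share reads. Columns of the authors' own DESeq2 comparison (fold changes, p-values) were not used. Columns named CTR were read as the wild-type embryos.

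Of 31507 entries, the one with the highest summed count was kept for each of 20701 symbols. Counts were filtered (filterByExpr), scaled by TMM and tested with the quasi-likelihood test of edgeR 4.0.16 in R 4.3.3 (two-sided, 1 genotype term, Benjamini-Hochberg over 14075 genes). CPM are TMM-scaled; log2 deviations and scores used a pseudocount of 1. The SE is the log2 fold change over the root of the F statistic. DESeq2 1.42.0 and limma 3.58.1 gave alternatives. The fit was tested on simulated data. Positions are from GENCODE vM1 on NCBIM37 (mm9); RefSeq promoter windows covered 3 Irx genes. Exact permutation tests enumerated every split of the embryos. Without molecular identifiers, library totals over the kept entries (18916452 to 26153039) bound counting error only.

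Named genes were the 6 members, Isl1, fixed lists (every member past FDR 0.05, with Hey2, Nkx2-5, Hand2, Tbx5, Myl2, Gja1 and Gja5), the 3 nearest coding genes at each cluster end, and the 3 genes most like each member. Kcnd2, Ttn, Gata4, Hand1, Pbx4, Meis2 and Mkx were named after their values were seen. The members and lists were chosen with earlier results of these data known.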

Additional observations from a re-analysis of the deposited data

Results flagged for a closer look

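In all, 3 values were singled out because 1 embryo lay far from the others of its group by Dixon's criterion for groups of 4, among 18 groups of values examined, of which chance flags about 1 in 20. All 3 were wild-type embryo 3 and are not independent: Irx3 at 79.9 CPM (gap over range 0.904), Irx5 at 37.1 CPM (0.838) and the summed Irx3, Irx5 and Irx6 at 117.1 CPM (0.995). The same embryo had the highest endoderm and the lowest erythroid marker scores of the 8 and the lowest heart muscle score of the wild-type embryos (0.13, the others 0.57 to 0.64), and the part of these in its Irx levels was not tested.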

How the results depend on the processing

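The number of Irx genes past the FDR of 0.05 was 0 in the reported edgeR fit and 1 (Irx4) with the DESeq2 Wald test (log2 fold change -0.60), with the presence of Y-linked reads as a covariate (-0.72, FDR 0.0470) and without wild-type embryo 3 (-0.64). Y-linked reads were present in 3 of 4 Isl1-/- and 1 of 4 wild-type embryos. Leaving out single embryos gave 0 to 1 Irx genes, -0.69 to -0.53 for Irx4, 0.06 to 0.33 for Irx1, 0.08 to 0.20 for Irx2, 0.23 to 0.49 for Irx3 and -0.0021 to 0.28 for Irx5, where the sign turned without wild-type embryo 4 (-0.0021). The ratio of Irx4 to heart muscle reads differed by 0.705 to 1.03 reads per 1000 (0.851 with all embryos), with exact p from 0.0286 to 0.0857. The lowest p came without wild-type embryo 3, the only wild-type value that overlapped in this ratio. All genes past the FDR numbered 137 in the reported fit, 728 with DESeq2, 309 with every transcript entry fitted and 70 to 490 with single embryos left out. With the replicate block 76 genes passed and Irx4 had an FDR of 0.147; same-numbered embryos correlated at 0.124, 0.195, 0.0355 and 0.559, and wild-type embryo 2 correlated better with Isl1-/- embryo 3 (0.383) than with its own number, so the numbers were not taken as pairs. Cluster ratios kept their sign under every scaling tried. The cause of these differences was not tested. Irx6 could not be fitted in the filtered tests.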

Other observations

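The other TALE homeobox genes, which include the Meis and Pbx partners of Hox proteins and the Irx-related gene Mkx, were examined as a list of 12. All 12 were fitted and 0 passed the edgeR FDR, 1 had an unadjusted p under 0.05, 10 had log2 fold changes above 0 and the median was 0.06, against 0.01 over all genes. Pbx4, at 2.29 ± 0.588 and 3.77 ± 0.381 CPM (SD, n = 4), had the largest value (0.71, edgeR FDR 0.132), and Meis2, at 166.9 and 171.3 CPM, was at 0.04. Mkx was at 0.21 (edgeR FDR 0.721).

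The genes whose deviations from the genotype means were most like those of each Irx gene over the 8 libraries are given as a description, since among 14075 genes and 8 libraries high values arise readily. For Irx3 they were Ticrr (Pearson r = 0.994), Sipa1l1 (0.993) and C530008M17Rik (0.993), and for Irx1 Zc3h7b (0.991), Ticrr (0.990) and C530008M17Rik (0.987), so 2 of the 3 were the same. For Irx5 they were Lonrf1 (0.988), Wdr59 (0.985) and Zfp69 (0.981), for Irx2 Sema6b (0.989), Arhgef17 (0.980) and Nynrin (0.975), and for Irx4 Gatb (0.980), Syp (0.964) and Golgb1 (0.963).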
